A study of Sus scrofa with 6 samples.

Results

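Enzymes that break down amino acids and run the methionine cycle were examined in pig liver after extended partial hepatectomy. The 44 genes of the list were looked up by symbol in the annotation deposited with the arrays. A transcript cluster, the probe set that reads a gene, was found for 27 of them, out of 25385 clusters tested. The cluster with the highest mean over the 6 arrays stood for the 3 genes with several clusters. The other 17 symbols were not found as written, and 5 of these genes were reached through their gene ID and are described apart. The remaining 12, CBS, GLDC, AMT, HGD, FAH, AMDHD1, MCCC1, MCCC2, HIBCH, HIBADH, PCCA and PRODH, were not analysed here.

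All 6 livers came from adult male German landrace pigs whose livers had been resected, sampled 24 h after surgery. By the methods, 3 animals received Ringer solution as vehicle (control) and 3 received mesenchymal stromal cells from porcine bone marrow (MSC), which had been differentiated in culture towards hepatocytes and were infused through a central vein. Each animal gave 1 array, and the arrays are named control 1 to 3 and MSC 1 to 3. Every animal in the comparison was resected, and livers of sham-operated pigs were not analysed here, so the values show a difference between resected groups and not the effect of surgery.

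The liver is the main site at which most amino acids are degraded. The amino group is moved to glutamate or aspartate by aminotransferases, and the carbon skeleton is oxidized or turned into glucose or ketone bodies. Hepatocytes also turn methionine into S-adenosylmethionine, the methyl donor of the cell, and recover or dispose of the homocysteine that is left, in part as cysteine and taurine. Many of these enzymes are characteristic of differentiated hepatocytes.

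In this text a gene rose or fell where the limma test of MSC against control gave an unadjusted p under 0.05 and an absolute difference of at least 0.5 on the log2 scale, the limits that the methods name. The limits were passed by 692 clusters (2.73%), of which 314 had the higher mean in MSC (1.24%) and 378 the higher mean in control (1.49%). Median centring of the arrays shifted this split to 384 and 305. After Benjamini-Hochberg adjustment over all clusters limma called 0 (lowest adjusted p = 0.176), against 1662 (6.55%) with an unadjusted p under 0.05. The methods' t-test with more than a 2-fold difference called 32 clusters, and 0 after adjustment. Median signals of the arrays lay between 6.51 and 6.59 (log2), and the number of arrays limits the precision. As a strict background level the 95th percentile of the 23 antigenomic probe sets was taken on each array, between 7.97 and 8.40. Of the 27 enzyme genes 9 lay above it on all 6 arrays, 7 on some and 11 on none, against 16.3% of all clusters on all arrays and 71.8% on none. The 11 genes below it are GNMT, DMGDH, SARDH, GCSH, UROC1, FTCD, BCKDHA, BCKDHB, AUH, GPT2 and AASS. The size of their differences is uncertain.

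Most of the enzyme genes had a higher mean in MSC, but 1 control liver did not stand with the other controls. The difference, MSC minus control, was above 0 for 23 of 27 genes, against 46.7% of all clusters, with a median of 0.37 over the 27 genes and -0.01 over all clusters (log2). This median rested on the control arrays, at 0.59 without control 1, 0.19 without control 2 and 0.22 without control 3. Averaged over the 27 genes, the control arrays read 8.71 (control 1), 7.85 (control 2) and 8.03 (control 3), and the MSC arrays read 8.57, 8.43 and 8.62 in the same order. Control 1 thus lay above all MSC arrays, and control 2 and 3 lay below them. By gene, control 2 gave the lowest of the 6 values for 19 of 27 genes, against 21.1% of all clusters. Control 1 gave the highest value for 9 genes, against 20.2% of all clusters. Control 2 lay below every MSC array for 22 genes and control 3 for 21, against 28.6% and 26.7% of all clusters. Control 1 did so for 4 genes (24.9% of all clusters) and lay above every MSC array for 9 (29.2% of all clusters). The SD was larger in control than in MSC for 22 of 27 genes, against 57.2% of all clusters. The median SD of the 27 genes was 0.43 in control and 0.23 in MSC, against 0.18 and 0.16 over all clusters. A difference of 0.5 is therefore easier to reach for these genes than for most clusters.

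**Figure D1:**
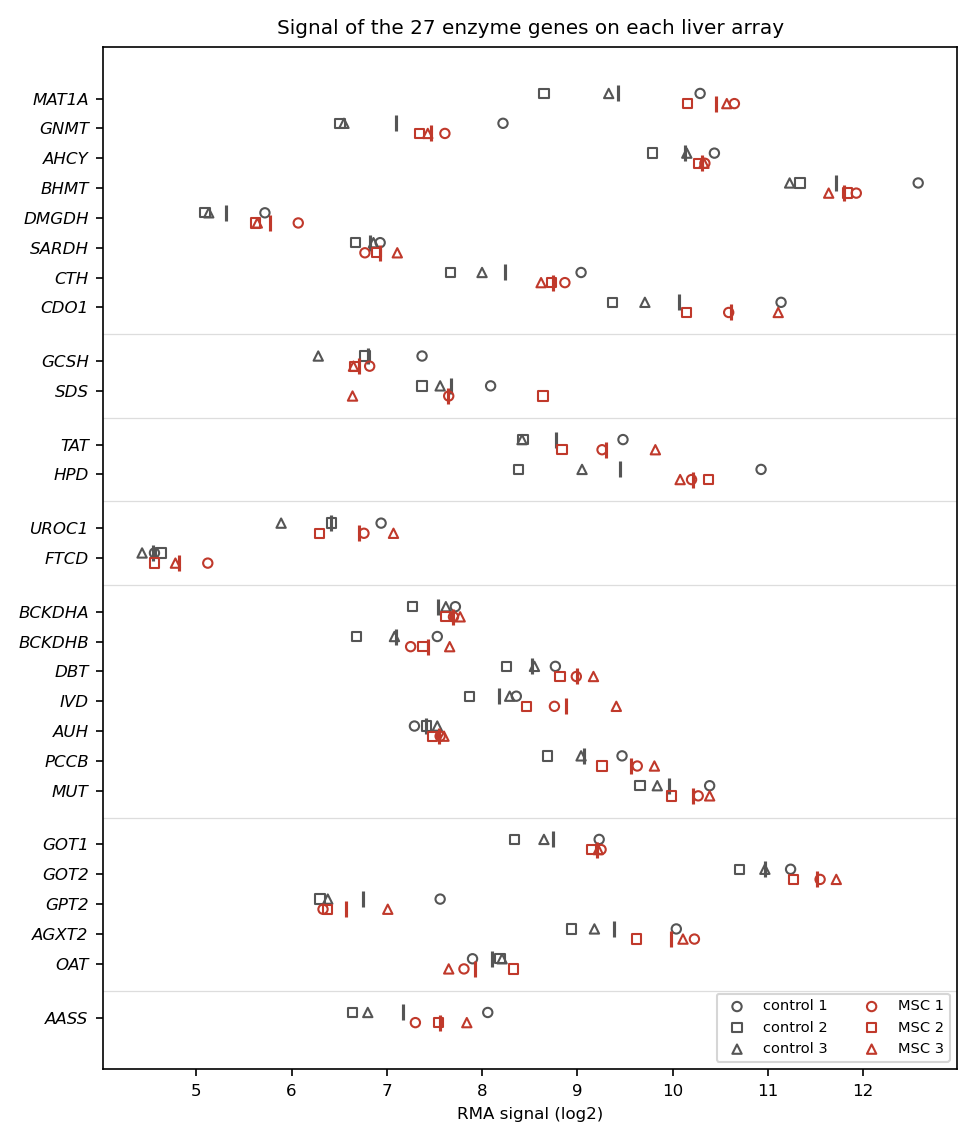
RMA signal (log2, horizontal axis) of the 27 enzyme genes, grouped by pathway, on the 3 control arrays (grey) and the 3 MSC arrays (red), with vertical ticks at the group means. For HPD the control values spread from 8.38 to 10.93, whereas the MSC values lie between 10.08 and 10.38.

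With all 6 arrays 3 of the 27 genes rose, MAT1A, IVD and GOT2, where 1.24% of all clusters did, and 0 fell (1.49%). The groups of arrays did not overlap for IVD, GOT2 and DBT, all higher in MSC, where 5.64% of all clusters were separated in that direction, and 0 genes were separated the other way (5.96%). No gene passed after adjustment (lowest adjusted p = 0.736), and 4 had an unadjusted p under 0.05, against 6.55% of all clusters. By the methods' t-test 0 of the 27 genes had an unadjusted p under 0.05, against 1477 of the 25385 clusters. The count of 3 rested on single arrays. It was 0 without control 2 (0.737% of all clusters rose) or MSC 3 (0.839%), 1 without MSC 1 (IVD, against 1.02%) and 2 without control 3 (IVD and GOT2, against 1.09%). It was 16 without control 1, where 3.95% of all clusters rose, and 6 without MSC 2 (2.44%). Control 1 had the highest enzyme mean of the controls, and MSC 2 the lowest of the MSC arrays. Leaving either out, or giving it less weight as below, raises the average difference by construction. These counts are therefore no added support. With array weights, which gave control 1 the lowest weight (0.447), 13 of the 27 genes rose (2.91% of all clusters). Beside MAT1A, IVD and GOT2 these were DMGDH, CTH, CDO1, TAT, HPD, DBT, PCCB, GOT1, AGXT2 and AASS, with differences from 0.54 (DBT) to 1.09 (HPD). With the replicate number added to the fit as a block 5 genes rose (1.61% of all clusters), although the labels do not say that the numbers pair the animals. For 22 genes the difference was above 0 with each array left out in turn, and for OAT it was below 0 each time. These fits share most of their arrays, and the share over all clusters was not computed.

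**Figure D2:**
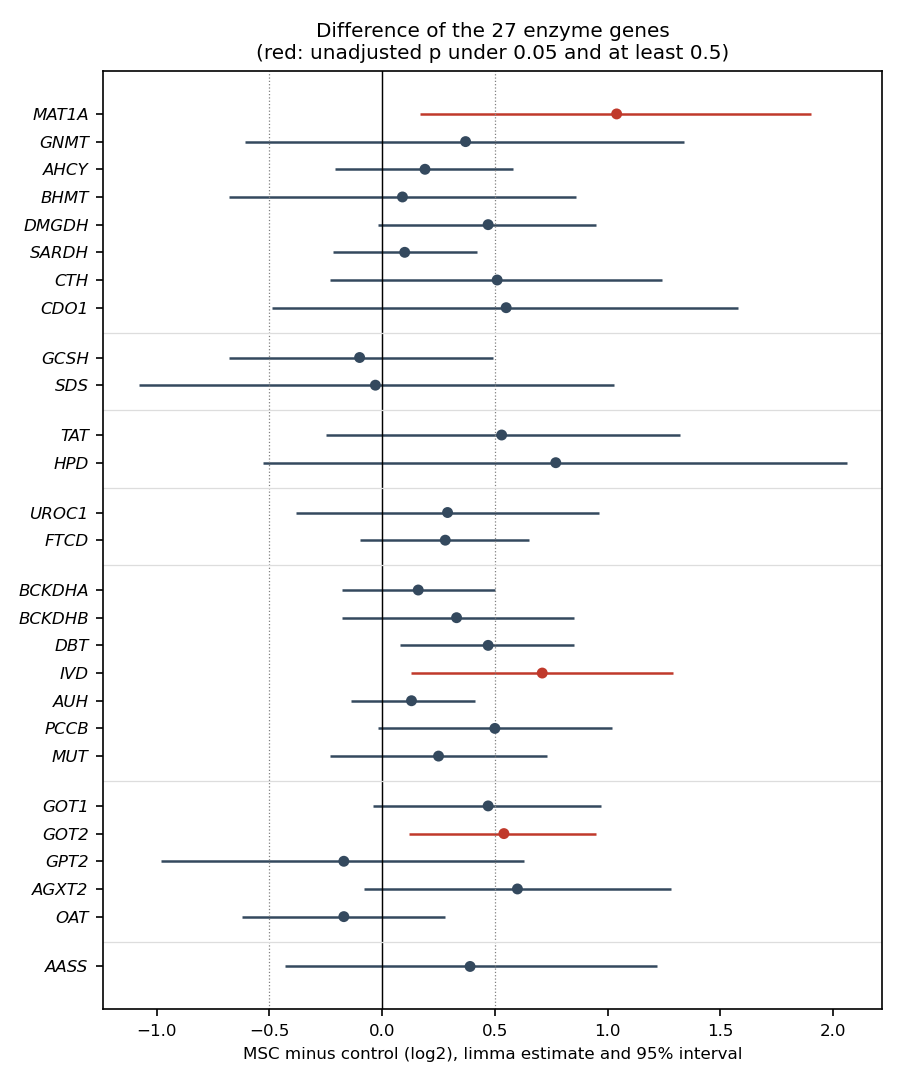
Difference between MSC and control (log2, horizontal axis) of the 27 enzyme genes with its 95% interval from limma, 3 arrays per group; dotted lines mark the limit of 0.5. MAT1A, IVD and GOT2 (red) are past both limits, and 23 of the 27 intervals span 0.

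Enzymes of the methionine cycle and of sulfur were led by MAT1A, which makes S-adenosylmethionine in the adult liver (chromosome 14). Its signal was 10.29, 8.65 and 9.33 on the control arrays and 10.65, 10.16 and 10.57 on the MSC arrays. Control 2 and 3 lay below all MSC values, while control 1 lay among them. MAT1A rose 2.05-fold, from 9.42 ± 0.82 to 10.46 ± 0.27 (log2, mean ± SD, n = 3 arrays per group), a difference of 1.04 (95% interval 0.17 to 1.90, adjusted p = 0.736 by limma). It was 1.47 without control 1 and 1.19 without MSC 2. It missed the limits without control 2 (0.65), control 3 (0.99), MSC 1 (0.94) or MSC 3 (0.98).

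The other 7 measured genes of this group also had higher means in MSC (46.7% of all clusters), and none passed. CDO1, which oxidizes cysteine on the way to taurine, read 11.14, 9.37 and 9.71 on the control arrays and 10.59, 10.15 and 11.11 on the MSC arrays, a difference of 0.55 (95% interval -0.49 to 1.58). The highest and the lowest of its 6 values were both control values. CTH, which releases cysteine from cystathionine, differed by 0.51 and DMGDH, which demethylates dimethylglycine in mitochondria, by 0.47 (0.52 and past the limits with repeated quantile normalization). The difference was 0.37 for GNMT, which spends methyl groups on glycine. It was 0.19 for AHCY, which splits S-adenosylhomocysteine, and 0.10 for SARDH, which demethylates sarcosine. BHMT, which gives homocysteine a methyl group from betaine, differed by 0.09 and had its highest value, 12.58, on control 1 and its lowest, 11.23, on control 3. Its 2 other clusters differed by 0.16 and 0.21. Without control 1, 3.95% of all clusters rose, and leaving it out raises the average enzyme difference by construction. In that fit a further 5 genes of this group rose, CDO1 (1.08), GNMT (0.93), CTH (0.91), DMGDH (0.67) and BHMT (0.52). Without control 2 these genes were at 0.19, 0.08, 0.22, 0.36 and -0.10 in the same order, and none passed. BHMT was at -0.15 without control 3.

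Genes for the breakdown of the branched-chain amino acids had higher means in MSC for all 7 measured members (46.7% of all clusters), and 1 of them rose (1.24% of all clusters). IVD, isovaleryl-CoA dehydrogenase of the leucine pathway (chromosome 1), had signals of 8.36, 7.87 and 8.29 in control and 8.76, 8.47 and 9.41 in MSC. The groups did not overlap, and MSC 3 was the highest. IVD rose 1.64-fold, from 8.17 ± 0.26 to 8.88 ± 0.48 (n = 3 arrays per group), a difference of 0.71 (95% interval 0.13 to 1.29, adjusted p = 0.736 by limma). It did not pass without MSC 3 (0.45) or control 2 (0.56), and the other 4 arrays could each be left out with the call kept (0.77 to 0.91).

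DBT, the transacylase core of the branched-chain ketoacid dehydrogenase complex (chromosome 4), was separated as well, at 8.77, 8.26 and 8.55 in control and 8.99, 8.82 and 9.17 in MSC. Its difference of 0.47 (95% interval 0.08 to 0.85) was under the limit of 0.5. DBT was at 0.33 without control 2 and passed without control 1 (0.59) or MSC 2 (0.55). It also passed under median centring (0.50) and weighting of the arrays (0.54). The subunits of the decarboxylase of the same complex differed by 0.33 (BCKDHB) and 0.16 (BCKDHA). BCKDHB rose by 0.55 without control 1 and was at 0.12 without control 2. PCCB, a subunit of propionyl-CoA carboxylase, differed by 0.50 (95% interval -0.02 to 1.02), and its other cluster by 0.54. PCCB was at 0.31 without control 2 and passed without control 1 (0.70) or MSC 2 (0.65). It also passed under the replicate block (0.50) and weighting of the arrays (0.63). MUT, the mutase that delivers propionate carbon to the citric acid cycle, differed by 0.25. The 2 clusters of AUH, a hydratase of the leucine pathway, did not read alike. The brighter differed by 0.13 (unadjusted p = 0.292 by limma). The other differed by 0.47, under the limit of 0.5 (unadjusted p = 0.00755 and adjusted p = 0.736 by limma). Its groups did not overlap, from 6.80 to 7.11 in control and from 7.33 to 7.56 in MSC, all below the background level. Of all clusters 5.64% were separated upwards. The mean of the 2 AUH clusters differed by 0.30, so the choice of cluster decides how AUH reads.

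Among the aminotransferases GOT2, the mitochondrial aspartate aminotransferase (chromosome 6), rose. Its signals were 11.24, 10.70 and 10.97 in control and 11.55, 11.27 and 11.72 in MSC. The groups did not overlap, although control 1 lay close under MSC 2. GOT2 rose 1.45-fold, from 10.97 ± 0.27 to 11.51 ± 0.23 (n = 3 arrays per group), a difference of 0.54 (95% interval 0.12 to 0.95, adjusted p = 0.736 by limma). The call was lost when control 2 (0.40), MSC 1 (0.52) or MSC 3 (0.44) was left out. The cytosolic isoenzyme GOT1 differed by 0.47 (95% interval -0.04 to 0.97), with 9.23, 8.34 and 8.65 in control and 9.25, 9.15 and 9.22 in MSC. Its MSC values lay close together, with control 1 among them. GOT1 passed without control 1 (0.71) or with array weights (0.58), and was at 0.26 without control 2.

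The other aminotransferases did not move one way. AGXT2, a mitochondrial enzyme that uses glyoxylate as amino acceptor, differed by 0.60 (95% interval -0.08 to 1.28). It passed without control 1 (0.93) or MSC 2 (0.79), under the replicate block (0.60) and under weighting of the arrays (0.81). Without control 2 AGXT2 was at 0.38. OAT, which turns ornithine towards glutamate and proline, was at -0.17 and GPT2, the mitochondrial alanine aminotransferase, at -0.17 (95% intervals -0.62 to 0.28 and -0.98 to 0.63). For OAT control 1 (7.90) lay below control 2 (8.19) and control 3 (8.21). GPT2 was highest on control 1 (7.56) and at 0.23 without it.

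In tyrosine breakdown the difference was 0.53 for TAT, the aminotransferase that opens the pathway, and 0.77 for HPD, the dioxygenase that follows it. TAT read 9.48, 8.43 and 8.42 on the control arrays and 9.26, 8.84 and 9.82 on the MSC arrays (95% interval of the difference -0.25 to 1.32). HPD, described here for its spread after its values were seen, read 10.93, 8.38 and 9.05 in control and 10.20, 10.38 and 10.08 in MSC (95% interval -0.53 to 2.06). Its range over the 6 arrays, 2.55, was the widest of the 27 genes, and both ends of it were control values. Without control 1 both genes rose (3.95% of all clusters), TAT by 0.88 and HPD by 1.51. Control 1 held the highest control value of both genes, so leaving it out raises both differences by construction. Without control 2 HPD differed by 0.23 and TAT by 0.36, and without MSC 3 TAT differed by 0.27.

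Lysine, histidine, glycine and serine enzymes showed no call with all arrays. AASS, which catalyses the opening steps of lysine breakdown, read 8.06, 6.64 and 6.80 in control and 7.30, 7.54 and 7.84 in MSC. Its difference was 0.39 (95% interval -0.43 to 1.22). It was 0.84 without control 1, where AASS passed, and 0.13 without control 2. In the histidine pathway FTCD, which passes the formimino group to folate, read 4.56, 4.63 and 4.43 in control and 5.12, 4.56 and 4.78 in MSC, a difference of 0.28 (95% interval -0.10 to 0.65), and its cluster is placed on chromosome 15 in the annotation but on no chromosome by RefSeq, so the gene it reads is uncertain. UROC1, the urocanate hydratase, differed by 0.29. Both lay below the background level on all arrays.

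Of the glycine and serine enzymes GCSH, the hydrogen carrier protein of the glycine cleavage system, read 7.37, 6.77 and 6.28 in control and 6.82, 6.66 and 6.65 in MSC, a difference of -0.10 (95% interval -0.68 to 0.49). The array annotation places its cluster on chromosome 7 and RefSeq the gene on chromosome 6, so the cluster may read a copy. SDS, which turns serine into pyruvate, had its highest value on MSC 2 (8.64) and its lowest on MSC 3 (6.64). Its difference of -0.03 therefore had a wide interval (-1.08 to 1.03).

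**Figure D3:**
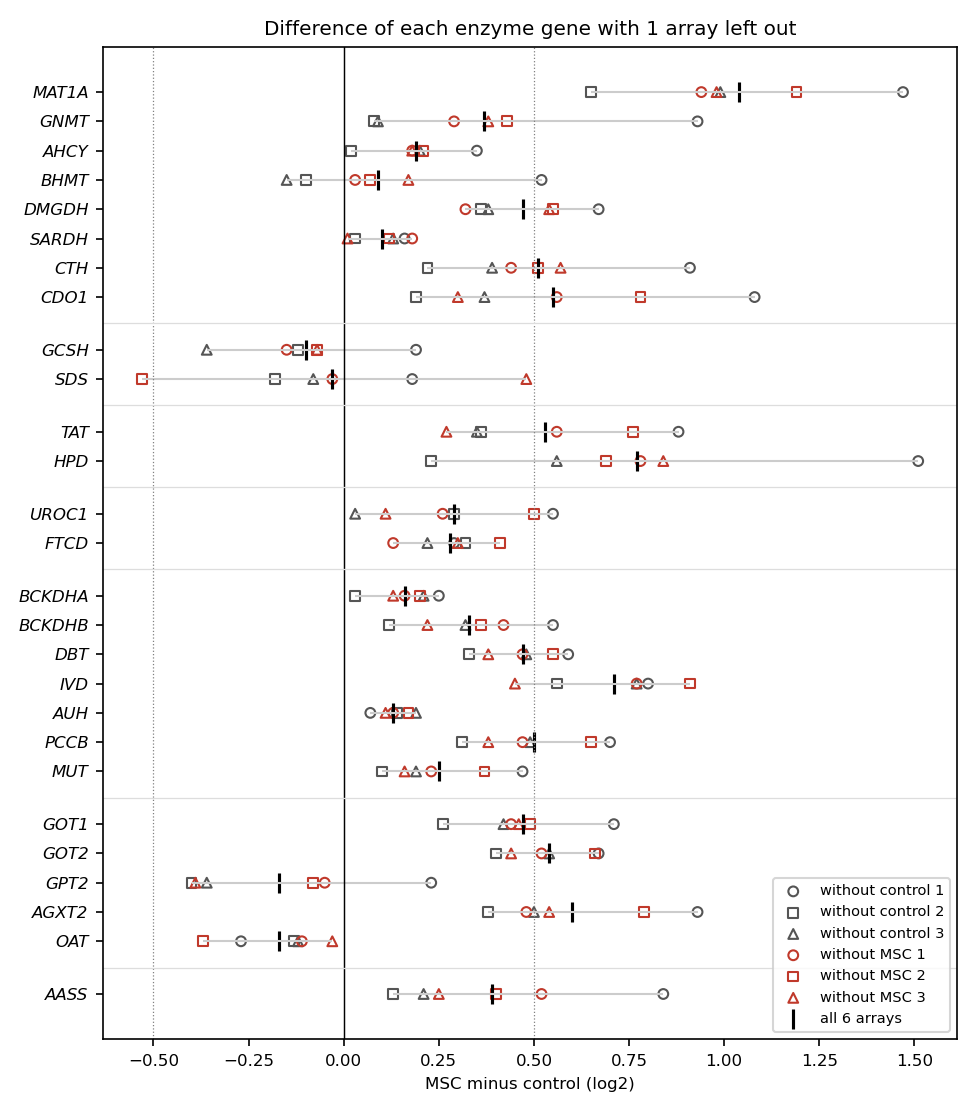
Difference between MSC and control (log2, horizontal axis) of the 27 enzyme genes with all 6 arrays (black ticks) and with each array left out in turn (grey symbols for control arrays, red for MSC arrays); dotted lines mark 0.5. HPD is at 0.23 when control 2 is left out and 1.51 when control 1 is. IVD reaches 0.45 at its lowest, with MSC 3 left out.

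The 5 genes reached through their gene ID, which carry provisional symbols in the annotation, did not pass. GCDH, the glutaryl-CoA dehydrogenase of the lysine pathway, differed by 0.53 (95% interval -0.06 to 1.11), at 8.71, 7.62 and 7.96 in control and 8.65, 8.54 and 8.68 in MSC. Its cluster is marked as prone to cross-hybridization, and its other cluster differed by 0.22. GCDH passed without control 1 (0.83), with array weights (0.68) and with the replicate block (0.53), and was at 0.29 without control 2. SDSL, a homologue of SDS, differed by 0.07, GPT, the cytosolic alanine aminotransferase, by -0.05 with all arrays below the background level, AGXT, which detoxifies glyoxylate, by -0.18 and HAL, the histidine ammonia-lyase, by -0.23. AGXT had a control 1 value of 9.03, against 7.05 to 7.74 on the other 5 arrays.

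A further list of 55 genes holds cofactor enzymes, neighbouring steps and related branches of these pathways, of which 30 were found. The 30 genes averaged 8.36, 7.83 and 7.97 on control 1 to 3 and 8.22, 8.03 and 8.39 on MSC 1 to 3. Control 2 gave the lowest value for 16 of them, against 21.1% of all clusters. Control 1 and MSC 3 each gave the highest for 11, against 20.2% and 16.3% of all clusters. The difference was above 0 for 22 genes (46.7% of all clusters), with a median of 0.19, and 1 rose (1.24% of all clusters). This was PCBD1, a dehydratase that regenerates the tetrahydrobiopterin used in phenylalanine breakdown, at 9.49, 8.92 and 9.22 in control and 9.71, 9.68 and 9.80 in MSC. The groups did not overlap, and PCBD1 rose by 0.52 (95% interval 0.15 to 0.89). It did not pass without control 2 (0.38) or MSC 3 (0.49) or with repeated quantile normalization (0.48). GSTZ1, a tyrosine pathway isomerase, was the other gene whose groups did not overlap (0.42), where 5.64% of all clusters were separated upwards. Of the 30 genes 0 fell. An unadjusted p under 0.05 was given to 3 of them, against 6.55% of all clusters, namely PCBD1, GSTZ1 and, with a lower mean in MSC, GATM of creatine synthesis (-0.47).

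Of 11 regulators known to act on hepatocyte or amino acid enzymes 8 were found, and 1 rose (1.24% of all clusters). The nuclear receptor HNF4A, which maintains the differentiated state of hepatocytes, read 9.71, 8.75 and 9.26 in control and 9.91, 9.77 and 10.14 in MSC. The groups did not overlap, and the difference was 0.70 (adjusted p = 0.736 by limma). HNF4A did not pass without control 2 (0.46) or MSC 3 (0.61), and it was at 0.94 without control 1. FOXO1 was separated too, with a difference of 0.24 (5.64% of all clusters were separated upwards). The stress regulator ATF4 was at -0.16, the only one of the 8 with a difference below 0.

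The tissue was whole liver, in which fewer cells of a type and less RNA per cell cannot be told apart. All 10 hepatocyte markers found lay above the background level on all 6 arrays. They averaged 12.39 on control 1, 11.81 on control 2 and 11.78 on control 3, and from 11.99 to 12.34 on the MSC arrays, so control 1 again lay above the MSC arrays. Of the 10 differences 8 were above 0 (46.7% of all clusters), with a median of 0.09, and 0 markers rose (1.24%) or fell (1.49%). An unadjusted p under 0.05 by limma was given to 2 of the 10 (6.55% of all clusters). These were APOH (0.43) and SERPINC1 (0.49), both higher in MSC. ALB, albumin, differed by 0.06, from 13.46 on control 2 to 13.63 on MSC 3.

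Markers of several other liver cells had lower means in MSC, in lists to be read against 46.7% of all clusters with a difference above 0 and 1.49% that fell. The 7 endothelial markers had a mean signal of 8.01 to 8.83 in control and 8.04 to 8.33 in MSC, all 7 differences were below 0, and VWF and FLT1 fell. The 10 stellate cell and fibroblast markers had means of 9.04 to 9.78 and 9.03 to 9.27, with 9 differences below 0, and RGS5 fell. The 5 bile duct markers had means of 8.29 to 9.28 and 7.94 to 8.47, all 5 below 0, and EPCAM and CFTR fell. In each of these 3 lists control 1 was the lowest of the control arrays and lay within the range of the MSC means or below it. The 4 neutrophil markers had means of 6.64 to 6.90 in control and 5.58 to 6.60 in MSC, and S100A8 fell. VWF and S100A8 lay below the background level on all 6 arrays, as did 3 of the 4 neutrophil markers, EPCAM and FLT1 lay above it on 1 array and CFTR on 2, so the size of these falls is uncertain. The 6 macrophage markers had means of 8.76 to 9.29 and 9.22 to 9.29, the 6 T and NK cell markers 6.19 to 6.95 and 6.53 to 6.70, and the 3 erythroid markers 6.61 to 7.59 and 6.23 to 6.97, and none of these rose or fell. The part of these cells in the enzyme differences was not tested.

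**Figure D4:**
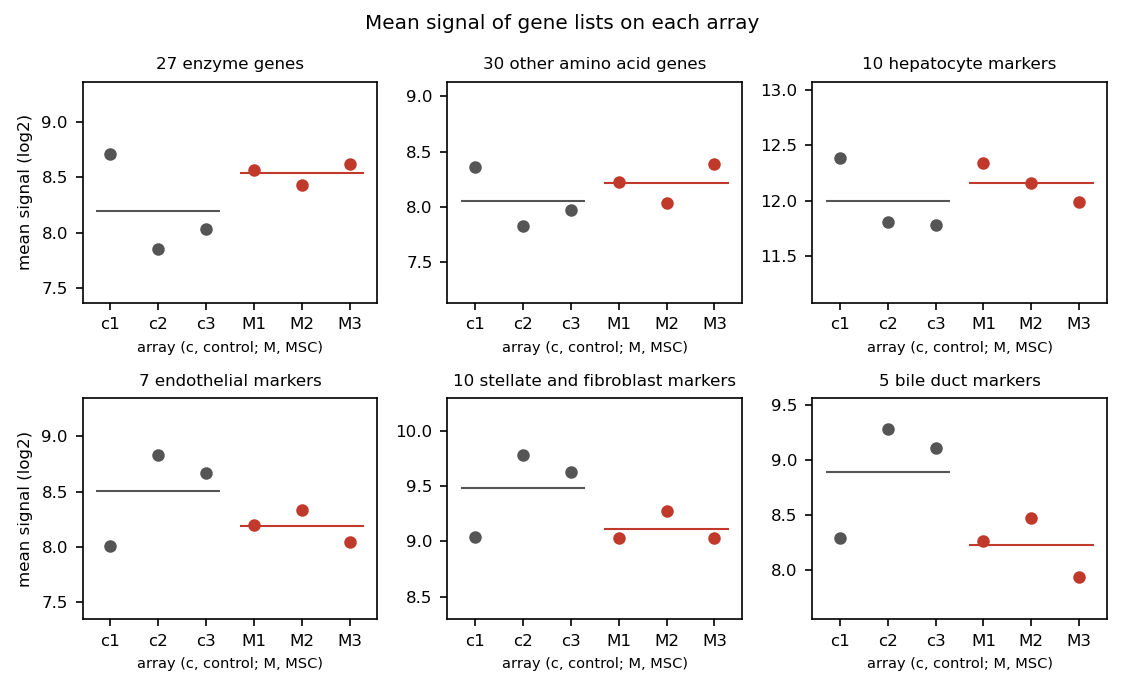
Mean signal (log2, vertical axis, each panel spanning the same range) of the enzyme genes, other amino acid genes and markers of 4 cell types on control arrays 1 to 3 (c1 to c3, grey) and MSC arrays 1 to 3 (M1 to M3, red), with lines at the group means. The enzyme mean is 8.71 on control 1 and 7.85 on control 2, and the endothelial mean is 8.01 and 8.83 on the same arrays.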

How the data were processed

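Expression was measured in 6 livers on Porcine Gene 1.0 ST arrays of Affymetrix, from total RNA labelled with the WT PLUS kit. The authors summarized the signals with RMA in Affymetrix Expression Console 1.4, and deposited log2 signals, which were used without further normalization. In the methods the t-test goes with Expression Console signals. The limma limits go with raw data annotated by Brainarray and summarized by RMA in R. The limma calls here therefore do not repeat those of the authors. No source used here gives the genome build of the annotation, so only chromosomes are named. The workbook's 6 signal columns could not be tied to a sample label and were left aside. Of 27558 probe sets 25385 clusters of category main or rescue were tested and 2173 control, normalization, reporter and ribosomal RNA sets were left out.

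MSC was compared with control by limma 3.58.1 in R 4.3.3 (lmFit and eBayes, 4 residual and 3.80 prior degrees of freedom), with Benjamini-Hochberg adjustment over all clusters. The methods give different animals for the arrays of a group, which the labels do not name, so a p-value measures the spread between animals and arrays together. Exact permutation of 3 against 3 arrays cannot go below p = 0.10 and was not used. The limma fit was tested on simulated clusters with known differences, drawn independently and with the same spread in both groups. That setting leaves out shifts that many genes of an array share. The enzyme genes, the pathway, regulator and marker lists and the tests were chosen with earlier results of these data known. Genes of the latter lists were also matched through gene IDs, synonyms, transcripts and Ensembl genes in RefSeq and Ensembl tables. Values on every array are given for enzyme, pathway and regulator genes past the limits, for enzyme genes found by symbol whose groups do not overlap and, in each pathway group, for the gene with the smallest p, and for a few others chosen after their values were seen. Marker genes are given by list. Alternatives were median centring, repeated quantile normalization, a filter on low signals, 1 cluster per symbol, the mean of a gene's clusters, array weights, a replicate block, the methods' t-test and leaving out each array.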

Additional observations from a re-analysis of the deposited data

How the results depend on the processing

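The number of clusters past the limits, 692, was 290 (172 higher, 118 lower) with 1 cluster per gene symbol and 398 (210 higher, 188 lower) without clusters of low signal, both by construction with fewer clusters. It was 1565 (739 higher, 826 lower) with array weights, where control 1 had the lowest weight (0.447), and 32 (13 higher, 19 lower) by the methods' t-test. With 1 array left out it ran from 445 to 2215, from 187 to 1003 higher and from 258 to 1212 lower. Of the 27 enzyme genes 3 rose (1.24% of all clusters), 13 with array weights (2.91%) and 5 with the replicate block (1.61%). With median centring or repeated quantile normalization 4 rose, where 384 and 301 of the 25385 clusters did. By the methods' t-test 0 rose, where 13 clusters did, and 0 had an unadjusted p under 0.05. With 1 array left out from 0 to 16 rose, against 0.737% to 3.95% of all clusters. In each of these settings 0 of the 27 genes fell. The median difference of the 27 genes, 0.37, was 0.56 with array weights and ran from 0.19 to 0.59 with 1 array left out. The other results whose direction turned were all within 0.25 of 0 with all arrays. With array weights GCSH was at 0.11, GPT2 at 0.09 and AGXT at 0.15, with median centring SDS at 0.01, and with repeated quantile normalization GPT at 0.02. With 1 array left out BHMT ran from -0.15 to 0.52, GCSH from -0.36 to 0.19, SDS from -0.53 to 0.48, GPT2 from -0.40 to 0.23, SDSL from -0.20 to 0.41, HAL from -0.43 to 0.14, GPT from -0.10 to 0.04 and AGXT from -0.56 to 0.44. Beyond the effect of fewer clusters or arrays, the cause was not tested. Both groups carry replicate numbers 1 to 3, and the labels do not say that the numbers pair the animals. Deviations of arrays with the same number correlated at -0.02, 0.25 and -0.08, against -0.18 to 0.20 for unlike numbers. With 3 arrays per group these correlations cannot settle whether the numbers mark a shared batch. With the number as a block 834 clusters passed, and PCCB, AGXT2 and, by gene ID, GCDH joined the calls. GNMT, DMGDH and the other enzyme genes below the background level have differences of uncertain size.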
